A study of Mus musculus with 47 samples.

Results

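Genes of the transforming growth factor beta (TGF-beta) superfamily and its inhibitors were followed through RNA-seq of C2C12 cells, an immortalised mouse myoblast line that stops dividing and fuses into myotubes when serum is withdrawn. The set holds 10 genes taken by symbol, with all transcripts of a gene added together, out of 45706 genes in the count tables. They were the secreted ligands *Mstn*, *Gdf11*, *Inhba*, *Tgfb1*, *Tgfb2*, *Tgfb3* and *Bmp4*, the extracellular antagonist *Fst*, and the inhibitory Smads *Smad6* and *Smad7*.

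The 47 libraries fell into 16 groups of 3 biological replicates, except the dox-treated myoblast-enriched fraction, which had 2, numbered 2 and 3. C2C12 iMyoD1 is a polyclonal population carrying, beside its endogenous *Myod1*, Halo-tagged MyoD1 alleles driven by a doxycycline (dox) inducible promoter; it was sampled at 0 h (dividing cells in growth medium, with dox or vehicle for 24 h) and after 24, 48 and 120 h of differentiation. At 120 h it was sampled as whole cultures and as 2 fractions made by light trypsin and a 40 µm strainer, the flow-through being the myoblast fraction and the retained cells the myotube fraction. The other lines, C2C12 iCdh23 and C2C12 iMcam, carry inducible *Cdh23* (cadherin 23) or *Mcam* (melanoma cell adhesion molecule) and were sampled at 48 h of differentiation. Every combination of line, time and fraction had 1 group treated with dox and 1 treated with vehicle. In differentiated cultures dox or vehicle was added at the onset of differentiation, so length of exposure and time of differentiation cannot be told apart. Every dox-treated library came from a line with an inducible transgene, so effects of dox and of a transgene cannot be told apart here.

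Ligands of this superfamily bind pairs of type I and type II receptor kinases. TGF-betas, activins, myostatin and GDF11 signal through Smad2 and Smad3, and bone morphogenetic proteins (BMPs) through Smad1, Smad5 and Smad9. Myostatin restrains the growth of skeletal muscle, its close relative GDF11 patterns the embryonic axis, and TGF-beta and activin hold back myoblast differentiation in culture. Follistatin, the product of *Fst*, binds activin, myostatin and GDF11 outside the cell and favours muscle growth. SMAD6 and SMAD7 are made in response to the pathway and block it from within, SMAD6 mainly on the BMP arm and SMAD7 on both.

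*Gdf11* and *Mstn* encode close relatives and lie far apart in these data, so the 250 bases before their start sites are shown. They are RefSeq sequences of GRCm38.p6, written 5′ to 3′ on the strand of the gene, at chr10:128891719-128891968 on the minus strand for *Gdf11* and chr1:53061390-53061639 on the plus strand for *Mstn*. Capitals mark CAGCTG, the E-box that MyoD1 binds.
Gdf11: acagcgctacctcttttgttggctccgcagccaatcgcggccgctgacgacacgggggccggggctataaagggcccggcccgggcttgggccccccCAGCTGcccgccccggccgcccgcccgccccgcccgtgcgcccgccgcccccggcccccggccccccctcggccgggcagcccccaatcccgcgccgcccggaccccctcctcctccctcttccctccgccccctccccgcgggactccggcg
Mstn: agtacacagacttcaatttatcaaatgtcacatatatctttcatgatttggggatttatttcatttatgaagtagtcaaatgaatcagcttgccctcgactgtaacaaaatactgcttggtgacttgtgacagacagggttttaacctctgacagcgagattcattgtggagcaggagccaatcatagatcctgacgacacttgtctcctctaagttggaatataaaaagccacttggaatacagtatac
The *Gdf11* window is 81.2% G and C and holds 1 CAGCTG, which begins 153 bases before the start; the *Mstn* window is 38.4% G and C and holds none. Such windows were found for 7 of the 10 genes, and *Gdf11* was the only one of the 7 with CAGCTG, which was in 13.0% of 32851 windows of the same length. All motifs were searched on both strands, and no 2 matches shared a window. The E-box CACCTG was in the *Bmp4* window and in 17.2% of all windows. The Smad palindrome GTCTAGAC and the BMP-responsive GGCGCC were in none of the 7, against 0.167% and 9.59% of all windows. A match is a description of the letters and not of binding.

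Library totals were between 15066338 and 50950674 counts, with a median of 22837926. Levels are normalised as CPM, library-size-scaled counts corrected with TMM factors over all 47 libraries, and a gene is said to have risen or fallen only where edgeR's quasi-likelihood test gave an adjusted p under 0.05 over all tested genes and a change over 2-fold. Myotube markers, 8 sarcomere and fusion genes summed, were at 1.67 to 5.29 CPM at 0 h, 9.19 to 11.2 CPM at 24 h and 5360 to 19700 CPM in the whole C2C12 iMyoD1 cultures at 48 and 120 h. Summed blood, endothelial and epithelial markers (5 genes) did not exceed 4.46 CPM in any library, osteoblast markers (6 genes) were at 23.1 to 96.0 CPM, adipocyte markers (5 genes) at 12.8 to 78.4 CPM and fibroblast markers (5 genes) at 5.89 to 408 CPM. In C2C12 iMyoD1 the counts assigned to *Myod1* were no higher with dox than without at any time except 0 h (188 ± 9.59 against 178 ± 5.77 CPM, SD, n = 3 each), and whether these counts include transgene transcripts was not tested. *Cdh23* in C2C12 iCdh23 was at 486 ± 73.6 CPM with dox and 389 ± 54.2 without, and *Mcam* in C2C12 iMcam at 71.3 ± 3.02 with dox and 18.1 ± 1.49 without (SD, n = 3 each).

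Some libraries stood apart in ways that touch these genes. A dox score was computed for each library from genes outside the set, as the mean log2 CPM of 220 genes that rose with dox at 24 h, 48 h and in whole cultures at 120 h less that of 79 genes that fell at all 3. In the myotube fraction the library labelled vehicle replicate 2 scored -0.875, against -3.02 and -3.13 for the other vehicle libraries, and the library labelled dox replicate 2 scored -3.57, against -0.421 and -0.459 for the other dox libraries. Both go against their labels; the labels were kept, and the main results of the myotube fraction are also given without this pair. Separately, the whole cultures at 120 h had low counts for GC-rich genes. In these 6 libraries the decile of genes richest in G and C lay at -1.43 to -0.54 relative to the median decile on the log2 scale, while in the 48 h dox libraries of the same line it lay at 0.38 to 0.50. *Smad6* (60.5% G and C), *Smad7* (58.6%) and *Tgfb1* (56.2%) are GC-rich transcripts, so dox effects on the 9 tested genes in whole cultures at 120 h are also given with a GC offset, a correction of each library for its trend with GC content that was added after the data were seen.

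*Mstn* (myostatin, ENSMUSG00000026100, GRCm38 chromosome 1 from 53061640 to 53068079) was close to undetected. It had no count in 26 of the 47 libraries, at most 3 counts in 41, and 62 counts in all. The highest value was 0.656 CPM (13 counts), in the library labelled dox replicate 2 of the myotube fraction. In dox-treated whole cultures at 120 h the 3 libraries had 0.158, 0.176 and 0.323 CPM, and the vehicle libraries 0.0492, 0 and 0 CPM. In all, 6 libraries had more than 3 counts, among them all 3 dox-treated whole cultures at 120 h with 4, 4 and 8. In a library 3 counts amount to 0.0589 to 0.199 CPM, a floor that covers counting error only. The gene passed the filter on low counts in no comparison, so it has no test and no fold change here. The other 9 genes were tested in all comparisons.

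**Figure D1:**
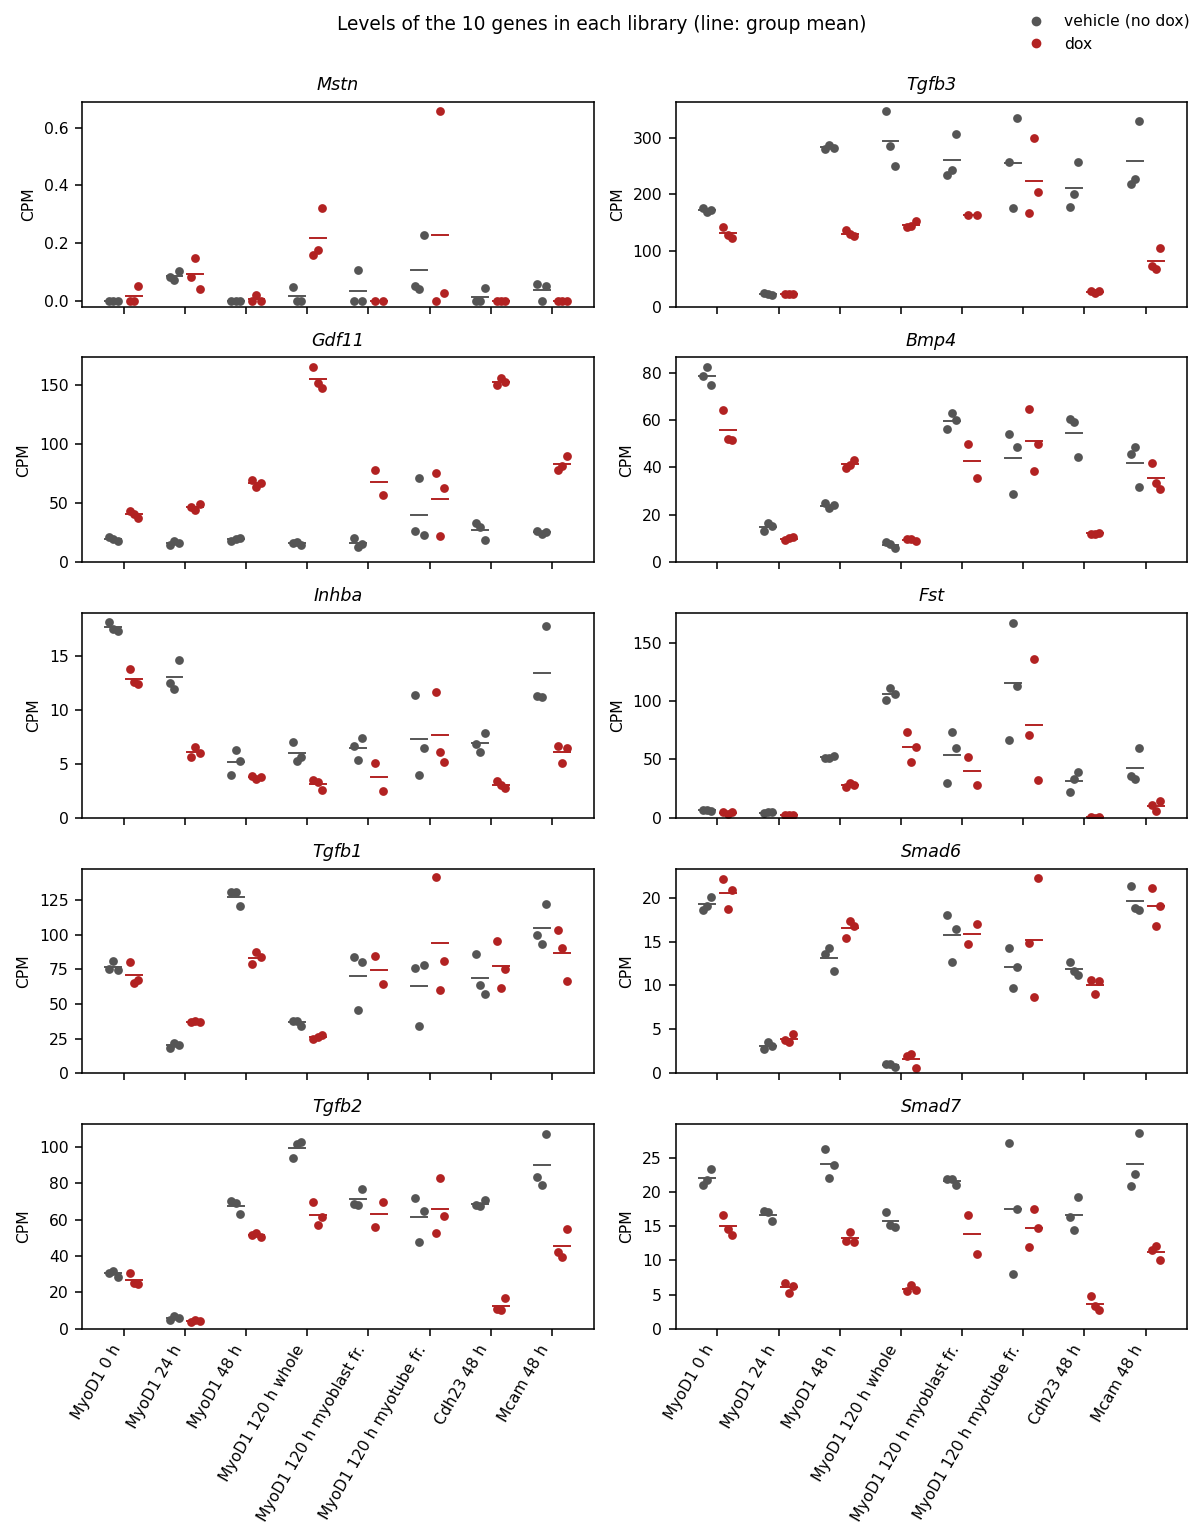
Each panel plots 1 gene, with CPM on a linear axis against line, time and fraction; each point is 1 library, grey for vehicle and red for dox, and the short line is the group mean. *Gdf11* is higher with dox in every panel column except the myotube fraction, where 1 vehicle library (70.8 CPM) and 1 dox library (21.9 CPM) lie with the opposite group, and *Mstn* does not pass 0.656 CPM.

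Per transcript length, the leading signal was *Tgfb3*. In TPM, a unit that divides by transcript length before scaling and so allows levels of different genes to be set side by side, *Tgfb3* had the highest mean of the 10 genes in 12 of 16 groups, *Tgfb1* in 3 and *Gdf11* in 1, dox-treated C2C12 iCdh23 (101 TPM). Group means of *Tgfb3* ran from 10.5 to 166 TPM. The next were *Fst* (0.799 to 109 TPM), *Tgfb1* (15.0 to 104 TPM), *Gdf11* (6.28 to 101 TPM) and *Bmp4* (8.12 to 78.2 TPM). *Tgfb2* stayed at or below 43.4 TPM, *Inhba* at or below 21.7, *Smad6* at or below 16.5 and *Smad7* at or below 13.2 TPM, and *Mstn* was lowest in all 16 groups.

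The dox comparisons set dox-treated against vehicle libraries of the same line, time and fraction. Amounts of the induced proteins were not measured in these libraries. *Gdf11* (ENSMUSG00000025352, GRCm38 chromosome 10 from 128882295 to 128891718, minus strand) was the member that rose, in 7 of 8 comparisons. In dividing cells at 0 h it was at 43.0, 41.0 and 37.5 CPM with dox and at 21.2, 19.9 and 18.2 CPM with vehicle. The groups did not overlap, and the log2 fold change was 1.05 (SE 0.0796, adjusted p = 3.55e-07); without vehicle replicate 3 it was 0.99, just under 2-fold. At 24 h the dox libraries had 46.4, 44.4 and 49.5 CPM and the vehicle libraries 14.5, 17.7 and 16.2 CPM (log2 fold change 1.51, SE 0.0749, adjusted p = 9.5e-09). At 48 h they had 69.7, 63.5 and 66.5 CPM against 18.2, 19.4 and 20.2 CPM (1.77, SE 0.0809, adjusted p = 5.84e-08). The widest gap was in whole cultures at 120 h, with 165, 151.0 and 147 CPM under dox and 16.5, 16.8 and 14.9 CPM under vehicle (3.25, SE 0.101, adjusted p = 1.67e-07; 3.32 with the GC offset).

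The other lines gave the same direction for *Gdf11*. Their libraries and those of C2C12 iMyoD1 at 48 h stand in separate deposited tables, so line and table cannot be told apart. In C2C12 iCdh23 at 48 h the gene was at 150.0, 155 and 152 CPM with dox and at 32.7, 29.6 and 19.1 CPM with vehicle, a log2 fold change of 2.49 (SE 0.191, adjusted p = 3.24e-05). In C2C12 iMcam it was at 78.2, 81.1 and 89.6 CPM against 26.5, 24.0 and 25.6 CPM (1.74, SE 0.0911, adjusted p = 0.000123). The dox effect in C2C12 iMcam differed from that in C2C12 iMyoD1 at 48 h by -0.03 on the log2 scale (SE 0.112, adjusted p = 0.899). In C2C12 iCdh23 it was larger than in C2C12 iMyoD1 by 0.73 (SE 0.209, adjusted p = 0.0157), although with all groups in 1 fit that adjusted p was 0.356. At 24 h it was larger than at 0 h by 0.41 (SE 0.113, adjusted p = 0.00917). Over the 16 group means *Gdf11* ranged 9.67-fold. The vehicle groups apart from the myotube fraction were at 15.96 to 27.1 CPM, and 5 of the 15 neighbouring pairs in the order of the levels did not overlap.

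**Figure D2:**
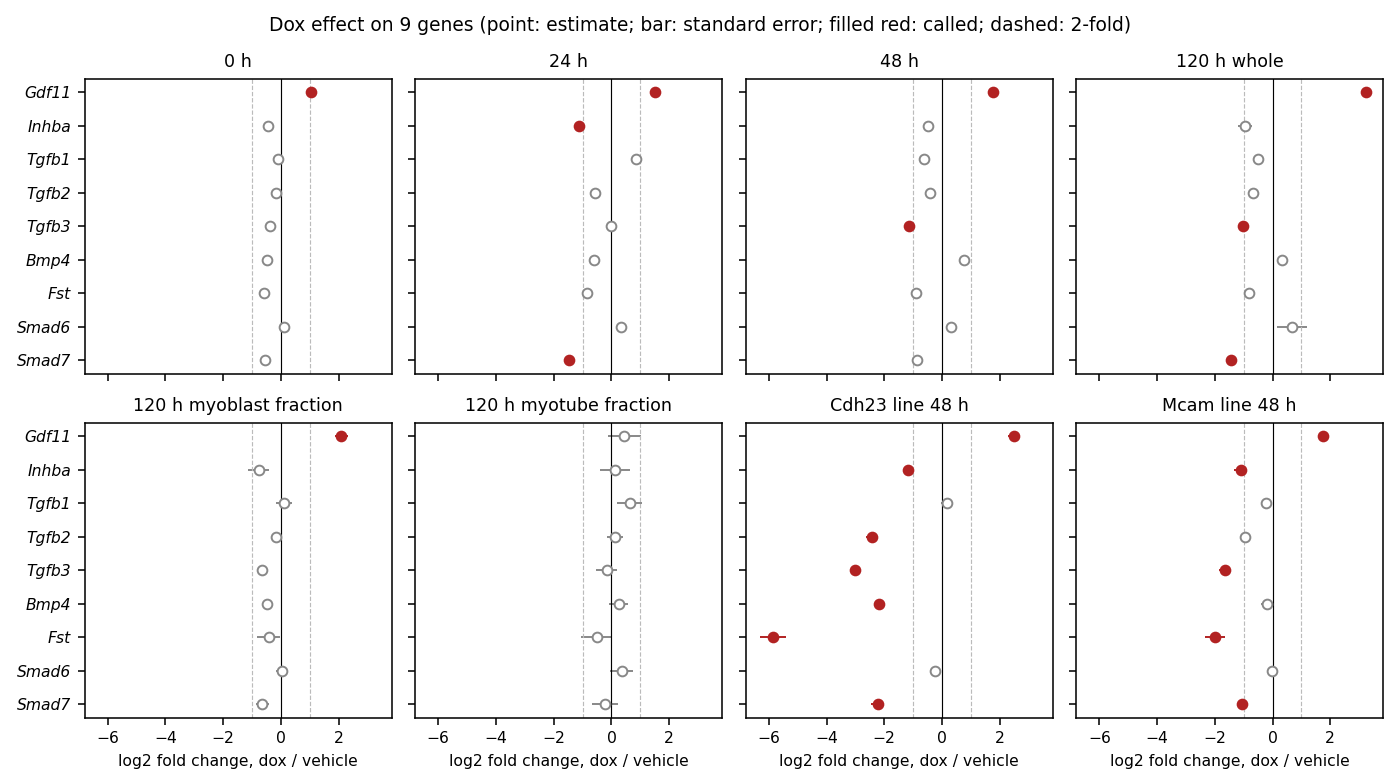
Each panel is 1 dox comparison and plots the log2 fold change of dox over vehicle for the 9 tested genes, with a bar for its standard error; filled red points passed both thresholds and dashed lines mark 2-fold. *Gdf11* is a filled point to the right of 0 in 7 panels, and *Fst* in the C2C12 iCdh23 panel is the farthest from 0 (-5.86).

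Among the activin and TGF-beta ligands the direction was mostly down. *Inhba* (ENSMUSG00000041324, chromosome 13 from 16011851 to 16031621), the subunit of activin A, fell at 24 h, from 12.4, 11.95 and 14.6 CPM with vehicle to 5.595, 6.59 and 6.02 CPM with dox (log2 fold change -1.13, SE 0.112, adjusted p = 3.15e-06). It also fell in C2C12 iCdh23 (-1.18, SE 0.177, adjusted p = 0.000785) and C2C12 iMcam (-1.11, SE 0.215, adjusted p = 0.00466). With total counts in place of TMM factors all 3 were under 2-fold, from -0.85 to -0.91, and in C2C12 iMcam it was also under 2-fold without vehicle replicate 3 (-0.86) or dox replicate 2 (-0.997). At 0 h its log2 fold change was -0.44 (adjusted p = 0.00134), under 2-fold. In whole cultures at 120 h it was -0.95 (adjusted p = 0.00891), under 2-fold, but past it with the GC offset (-1.05, adjusted p = 0.00245) and without vehicle replicate 2 (-1.04), dox replicate 1 (-1.04) or dox replicate 2 (-1.003).

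*Tgfb3* (ENSMUSG00000021253, chromosome 12 from 86056745 to 86079041) had a negative estimate in all 8 dox comparisons, over 2-fold in 4. At 0 h it was at 131 ± 10.5 CPM with dox and 173 ± 3.56 CPM with vehicle (SD, n = 3 each), groups that did not overlap (log2 fold change -0.39, SE 0.0607, adjusted p = 0.000205, under 2-fold). At 24 h the dox libraries (21.8, 22.4 and 22.9 CPM) and vehicle libraries (23.8, 21.9 and 21.6 CPM) overlapped, with a log2 fold change of -0.03 (SE 0.0681, adjusted p = 0.757; 0.24 when scaled by total counts alone, adjusted p = 0.0105). At 48 h they had 136, 129 and 126 CPM against 282, 289 and 282 CPM, a fall of -1.14 (SE 0.0598, adjusted p = 1.2e-07; with total counts alone -0.9996, just short of 2-fold). In whole cultures at 120 h they had 141, 144 and 152 CPM against 349, 287 and 251 CPM (-1.03, SE 0.119, adjusted p = 0.000141); with the GC offset the change was -0.94, with total counts alone -0.83 and without vehicle replicate 1 -0.90, each short of 2-fold. The fall was larger in C2C12 iCdh23, from 178, 201 and 258 CPM to 27.3, 24.1 and 27.9 CPM (-3.01, SE 0.163, adjusted p = 9.23e-06), and the difference from C2C12 iMyoD1 was -1.85 (SE 0.165, adjusted p = 3.41e-06). In C2C12 iMcam it fell by 1.63 on the log2 scale (SE 0.212, adjusted p = 0.000944).

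*Tgfb2* (ENSMUSG00000039239, chromosome 1 from 186622792 to 186705989) fell in C2C12 iCdh23, from 68.1, 67.5 and 70.7 CPM to 10.6, 10.5 and 16.8 CPM (log2 fold change -2.44, SE 0.193, adjusted p = 3.67e-05). In the other dox comparisons of whole cultures its change was between -0.95 in C2C12 iMcam and -0.17 at 0 h, under 2-fold in each, although in C2C12 iMcam it passed 2-fold without vehicle replicate 1 (-1.02) or 2 (-1.05) or dox replicate 3 (-1.10). At 120 h it was -0.68, and -0.71 with the GC offset. *Tgfb1* (ENSMUSG00000002603, chromosome 7 from 25687002 to 25705077) was called in no dox comparison, and in whole cultures at 120 h its change was -0.51 (adjusted p = 0.00502; -0.31 with the GC offset). Its values were 36.7, 37.4 and 37.2 CPM with dox and 18.5, 21.5 and 20.6 CPM with vehicle at 24 h (0.85, SE 0.0663, adjusted p = 4.03e-07), and 79.0, 87.4 and 84.0 against 131, 131 and 121 CPM at 48 h (-0.63, SE 0.0639, adjusted p = 1.33e-05). The groups did not overlap at either time and lay in opposite order. Scaled by total counts alone, the 24 h change was 1.11 and past 2-fold.

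*Bmp4* (ENSMUSG00000021835, chromosome 14 from 46383520 to 46390669), the BMP ligand of the set, had dox effects of either sign. In C2C12 iMyoD1 it was lower with dox at 0 h (55.9 ± 7.23 against 78.6 ± 3.89 CPM, SD, n = 3 each; log2 fold change -0.48, adjusted p = 0.00041) and at 24 h (9.95 ± 0.5 against 15.0 ± 1.81 CPM; -0.62, adjusted p = 0.000253), under 2-fold and without overlap at both. In whole cultures at 120 h the estimate was 0.34 (adjusted p = 0.16; 0.46, adjusted p = 0.0235, with the GC offset). At 48 h it was at 39.7, 41.0 and 43.0 CPM with dox and at 24.9, 22.7 and 24.2 CPM with vehicle (log2 fold change 0.77, SE 0.0759, adjusted p = 1.04e-05, under 2-fold). In C2C12 iCdh23 it fell, from 60.3, 59.3 and 44.3 CPM to 11.97, 11.95 and 12.4 CPM (-2.18, SE 0.136, adjusted p = 1.39e-05). The difference between these effects was -2.93 (SE 0.159, adjusted p = 9.19e-08). In C2C12 iMcam the libraries overlapped (-0.21, SE 0.193, adjusted p = 0.396), and the difference from C2C12 iMyoD1 was -0.98 (SE 0.218, adjusted p = 0.0203), a call that was lost when any 1 of 4 libraries was left out and with all groups in 1 fit (adjusted p = 0.176).

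*Fst* (ENSMUSG00000021765, chromosome 13 from 114452290 to 114458951) gave the largest dox effect among the 10 genes. In C2C12 iCdh23 it was at 21.9, 33.1 and 39.6 CPM with vehicle and at 0.542, 0.166 and 0.927 CPM with dox, a fall of -5.86 on the log2 scale (SE 0.458, adjusted p = 3.53e-05). In C2C12 iMcam it fell from 35.4, 32.8 and 60.2 CPM to 11.2, 5.66 and 14.2 CPM (-2.00, SE 0.352, adjusted p = 0.00308). In C2C12 iMyoD1 the change was under 2-fold at every time, at 0 h (-0.59, adjusted p = 0.0134), 24 h (-0.84, adjusted p = 0.000484), 48 h (-0.90, adjusted p = 2.65e-06) and in whole cultures at 120 h (-0.82, adjusted p = 0.00153; -0.86 with the GC offset), and the groups overlapped at none of these times. The C2C12 iCdh23 effect differed from the C2C12 iMyoD1 effect by -4.95 (SE 0.404, adjusted p = 1.77e-06); for C2C12 iMcam the difference was -1.11 (SE 0.366, adjusted p = 0.0903), and it passed with DESeq2 (-1.11, adjusted p = 0.0289), without the filter on low counts (-1.16, adjusted p = 0.00926) and without C2C12 iMcam dox replicate 3 (-1.42, adjusted p = 0.0323). Myotube markers were lower with dox in the comparisons at 48 h. Their sum was 38.9 to 132 CPM with dox and 5140 to 9370 CPM with vehicle in C2C12 iCdh23, 497 to 1660 against 3760 to 9710 CPM in C2C12 iMcam, and 5360 to 5640 against 13100 to 14500 CPM in C2C12 iMyoD1 at 48 h. Proliferation markers were also lower with dox in C2C12 iCdh23 (11.6 to 25.7 against 580 to 890 CPM), in C2C12 iMcam (49.7 to 102 against 559 to 701 CPM) and in C2C12 iMyoD1 at 48 h (267 to 287 against 919 to 933 CPM). At 0 h 2 of 3 tested myotube markers rose with dox (median log2 fold change 1.01), and at 24 h 0 of 7 were called (median 0.13). The marker sum at 0 h was low, 4.5 to 5.29 CPM with dox and 1.67 to 2.55 CPM with vehicle. The part of these markers in the *Fst* result was not tested, and in bulk RNA fewer cells of a type and less RNA per cell cannot be told apart.

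The inhibitory Smads behaved differently from each other. *Smad7* (ENSMUSG00000025880) had a negative estimate in all 8 dox comparisons and fell in 4. At 24 h it went from 17.2, 17.1 and 15.8 CPM to 6.75, 5.25 and 6.30 CPM (log2 fold change -1.47, SE 0.102, adjusted p = 1.52e-07). In whole cultures at 120 h it went from 17.1, 15.2 and 14.9 CPM to 5.53, 6.33 and 5.65 CPM (-1.44, SE 0.152, adjusted p = 8.3e-05; -1.16 with the GC offset), and it fell in C2C12 iCdh23 (-2.23, SE 0.231, adjusted p = 0.000128) and C2C12 iMcam (-1.07, SE 0.146, adjusted p = 0.00116; under 2-fold with total counts alone, -0.87, and without vehicle replicate 3 or dox replicate 3). The effect at 24 h was larger than at 0 h by -0.97 (SE 0.136, adjusted p = 3.21e-05). At 48 h in C2C12 iMyoD1 the change was -0.88 (adjusted p = 1.34e-05) and, with the GC offset, -1.07 and past 2-fold. *Smad6* (ENSMUSG00000036867, chromosome 9 from 63953076 to 64022059) was called in no dox comparison, with estimates from -0.24 to 0.66. The highest was in whole cultures at 120 h, where the groups overlapped (adjusted p = 0.33), and it was 1.03 with the GC offset (adjusted p = 0.109) and 1.06 without dox replicate 3 (adjusted p = 0.0772). Over the 16 group means the correlation of log2 levels was -0.81 between *Gdf11* and *Smad7* and 0.0 between *Gdf11* and *Smad6*, a description of groups that share lines and libraries.

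Counted over the tested genes of the set, 1 of 9 was called with dox at 0 h (all tested genes 4.27%), 3 of 9 at 24 h (13.1%), 2 of 9 at 48 h (14.4%) and 3 of 9 in whole cultures at 120 h (16.1%). In C2C12 iCdh23 it was 7 of 9 (1 up and 6 down, all tested genes 30%) and in C2C12 iMcam 5 of 9 (1 up and 4 down, 16.8%). The median log2 fold change of the 9 was -2.18 in C2C12 iCdh23 and -0.95 in C2C12 iMcam, beside -0.0025 and 0.02 for all tested genes. For the differences between dox effects, 5 of 9 were called for 24 h against 0 h (all tested genes 34.1%), 8 of 9 for C2C12 iCdh23 against C2C12 iMyoD1 (35.8%) and 1 of 9 for C2C12 iMcam against C2C12 iMyoD1 (6.41%). The comparisons of the lines share the C2C12 iMyoD1 libraries of 48 h. Those libraries and the libraries of the other lines stand in separate deposited tables, so line and table cannot be told apart.

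In the fractions at 120 h, *Gdf11* rose in the myoblast fraction, with 77.8 and 57.0 CPM under dox against 20.1, 12.6 and 15.2 CPM under vehicle (log2 fold change 2.09, SE 0.234, adjusted p = 0.0118). It was the only member called there (1 of 9, all tested genes 3.03%), and its adjusted p was 0.121 with all groups in 1 fit and between 0.0509 and 0.11 without vehicle replicate 3, dox replicate 2 or dox replicate 3. Dox had only 2 libraries here, so without either of them dox is 1 library that is assumed to vary as the vehicle libraries do. *Tgfb3* had 163 and 163 CPM against 234, 243 and 308 CPM (-0.67, SE 0.162, adjusted p = 0.0623), groups that did not overlap. *Smad7* had 16.7 and 10.95 CPM against a vehicle mean of 21.6 ± 0.546 CPM (SD, n = 3), and the groups did not overlap (log2 fold change -0.64, SE 0.212, adjusted p = 0.136).

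In the myotube fraction as labelled, *Gdf11* was at 75.6, 21.9 and 62.9 CPM with dox and at 26.7, 70.8 and 22.7 CPM with vehicle (log2 fold change 0.45, SE 0.567, adjusted p = 0.998). The out-of-place values are the libraries labelled replicate 2 of each group, the same pair whose dox scores go against their labels. Without both, the estimate was 1.53 (adjusted p = 0.363, 2 libraries against 2), and for *Smad7* it moved from -0.23 to -0.72 (adjusted p = 0.629). No gene of the whole table was called by edgeR in this comparison (0%, with 79 of 14112 genes at an unadjusted p under 0.05 and 1 called by DESeq2), and none without the pair (1277 at an unadjusted p under 0.05). The test of whether the dox effect on *Gdf11* differed between fractions gave -1.67 (SE 0.74, adjusted p = 1.0) as labelled and -0.59 (adjusted p = 1.0) without the pair. As labelled it had no call among all tested genes (0% by edgeR, 218 at an unadjusted p under 0.05, 2 by DESeq2), and without the pair none either (392 at an unadjusted p under 0.05).

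**Figure D3:**
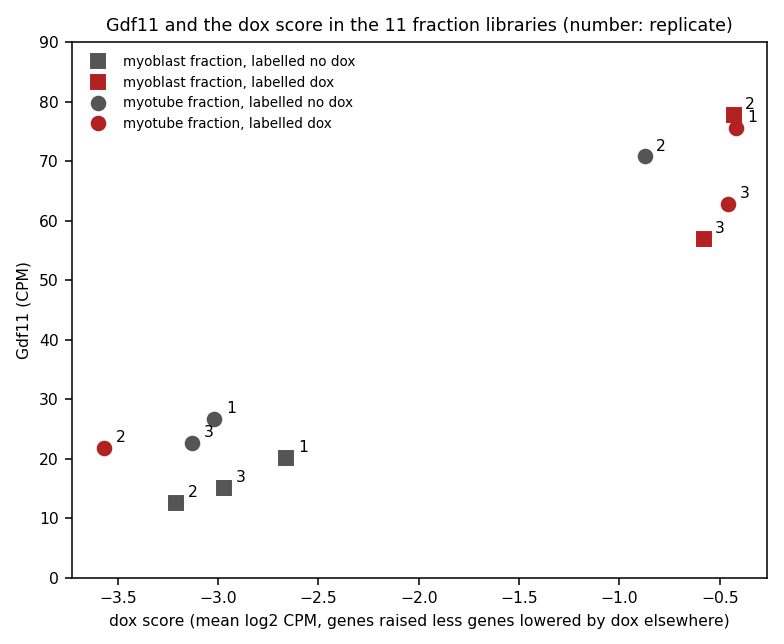
*Gdf11* in CPM is plotted against the dox score for the 11 fraction libraries at 120 h; squares are the myoblast and circles the myotube fraction, grey is labelled vehicle, red is labelled dox, and the number is the replicate. The grey circle numbered 2 lies among the red points at a score of -0.875 and 70.8 CPM, and the red circle numbered 2 among the grey points at -3.57 and 21.9 CPM.

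Between fractions edgeR called no member without a replicate block. Under vehicle the block called *Fst* and DESeq2 called *Gdf11*. Under vehicle *Fst* was at 67.0, 167 and 113 CPM in the myotube fraction and at 29.6, 73.4 and 59.6 CPM in the myoblast fraction, higher in the myotube fraction in each numbered pair, with a log2 fold change of 1.12 (SE 0.399, adjusted p = 0.234) and, with the replicate number as a block, 1.12 (adjusted p = 0.00999). The numbers pair these libraries, and the vehicle library numbered 2 of the myotube fraction is the one that goes against its label. Without the libraries labelled replicate 2 of both myotube groups the unblocked estimate was 0.74 (adjusted p = 0.432). *Gdf11* under vehicle had an estimate of 1.36 (SE 0.434, adjusted p = 0.193) and 0.65 (adjusted p = 0.26) without that pair; DESeq2 gave 1.37 (adjusted p = 0.0281), a call. Of all tested genes 0.585% were called under vehicle, and 0% under dox (edgeR, with 183 at an unadjusted p under 0.05 and none by DESeq2), where *Fst* had 71.1, 136 and 32.1 CPM in the myotube fraction and 52.2 and 28.3 CPM in the myoblast fraction. Its estimate under dox was 1.01 (SE 0.632, adjusted p = 1.0) and 0.38 (adjusted p = 1.0) without the pair, with no call among all genes then either (82 at an unadjusted p under 0.05). Myotube markers were at 15200 to 24500 CPM in the myotube and 5790 to 9300 CPM in the myoblast fraction under vehicle, and at 5880 to 23600 and 5540 to 5750 CPM under dox.

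The time comparisons ask how the same genes moved in the course of differentiation. From 0 to 24 h under vehicle 5 of 9 genes fell and none rose (all tested genes 26.1%). *Tgfb3* went from 176, 169 and 173 CPM to 23.8, 21.9 and 21.6 CPM (log2 fold change -2.91, SE 0.0615, adjusted p = 1.62e-13). *Bmp4* went from 78.4, 82.5 and 74.8 CPM to 13.1, 16.7 and 15.3 CPM (-2.35, SE 0.0848, adjusted p = 1.59e-11), and *Smad6* from 18.6, 19.1 and 20.1 CPM to 2.72, 3.51 and 3.05 CPM (-2.60, SE 0.123, adjusted p = 2.41e-10). *Tgfb2* (-2.28) and *Tgfb1* (-1.89) also fell, so that all 3 TGF-beta genes were lower at 24 h. Under dox 6 of 9 fell (all tested genes 16.8%): *Tgfb2*, *Tgfb3*, *Bmp4* and *Smad6*, with *Inhba* (-1.09, SE 0.107, adjusted p = 9.7e-07) and *Smad7* (-1.29, SE 0.113, adjusted p = 3.33e-07), while *Tgfb1* had -0.93 (adjusted p = 1.38e-07), under 2-fold. Proliferation markers went from 2100 to 2120 CPM at 0 h to 540 to 592 CPM at 24 h under vehicle. Their part in these changes was not tested.

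**Figure D4:**
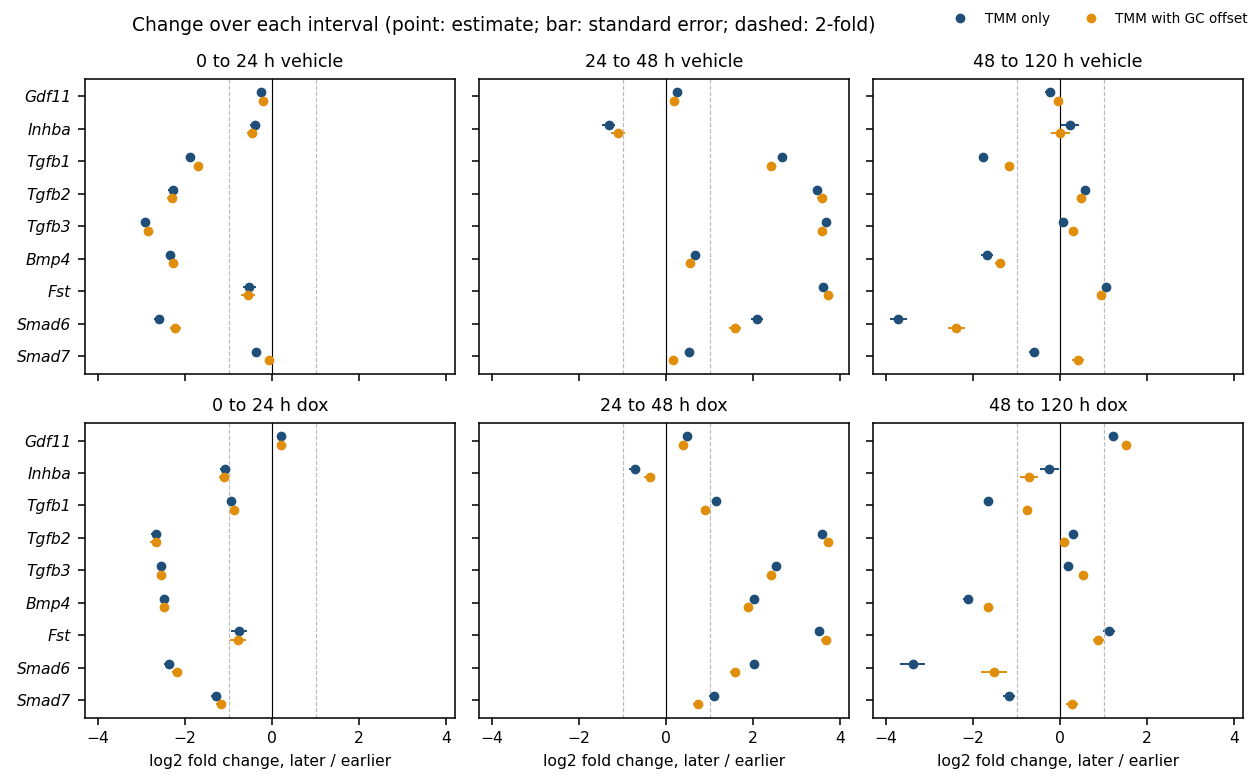
Panels give the log2 fold change of the later over the earlier time for 9 genes, under vehicle (upper row) and dox (lower row), with bars for standard errors; blue points use TMM factors alone and orange points add the GC offset. From 48 to 120 h the orange *Smad6*, *Smad7* and *Tgfb1* points lie to the right of the blue ones, and under dox *Smad7* moves from -1.17 to 0.27.

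From 24 to 48 h most of these genes went the other way, but the libraries of 24 h and 48 h stand in separate deposited tables, so time and table cannot be told apart. Under vehicle 5 of 9 rose and 1 fell (all tested genes 30.4%). *Tgfb3* reached 282, 289 and 282 CPM (log2 fold change 3.67, SE 0.0645, adjusted p = 1.52e-14). *Fst* went from 3.61, 4.47 and 4.67 CPM to 51.0, 51.4 and 52.9 CPM (3.60, SE 0.0939, adjusted p = 7.38e-13), *Tgfb2* changed by 3.47 and *Tgfb1* by 2.66, and *Inhba* fell (-1.32, SE 0.156, adjusted p = 4.28e-06). Under dox 7 of 9 rose and none fell (all tested genes 28.8%). They included *Bmp4* (2.03, SE 0.0776, adjusted p = 2.83e-09), which under vehicle changed by 0.67, and *Tgfb1* (1.15) and *Smad7* (1.09), both under 2-fold with the GC offset (0.89 and 0.73) and with total counts alone (0.98 and 0.93). Myotube markers rose in 8 of 8 under vehicle (median 11.1) and under dox (9.24). Fibroblast markers rose in 4 of 4 and 3 of 4 (medians 4.44 and 4.13). Of 5 proliferation markers 1 rose under vehicle (median 0.73) and 3 fell under dox (-1.16). Osteoblast and adipocyte markers each rose in 1 of 2 under both. The part of these markers was not tested.

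From 48 to 120 h in whole cultures *Smad6* and *Bmp4* fell under vehicle and under dox. The changes under dox and vehicle over this interval were not tested against each other. *Smad6* went from 13.6, 14.3 and 11.6 CPM to 1.08, 1.09 and 0.761 CPM under vehicle (log2 fold change -3.72, SE 0.197, adjusted p = 8.68e-07; -2.39 with the GC offset). *Bmp4* went from 24.9, 22.7 and 24.2 CPM to 8.32, 7.83 and 5.95 CPM (-1.68, SE 0.141, adjusted p = 9.87e-06; -1.39 with the GC offset). *Tgfb1* changed by -1.78 under vehicle and, with the GC offset, by -1.19. *Fst* rose, from 51.0, 51.4 and 52.9 CPM to 101, 111 and 106 CPM (1.05, SE 0.0836, adjusted p = 7.19e-06), a change of 0.93 and under 2-fold with the offset, and of 0.99 with total counts alone. Under vehicle 4 of 9 were called (all tested genes 29.8%) and under dox 6 of 9 (36.4%), or 3 of 9 under dox with the GC offset. Under dox *Fst* was among the 6 (1.12, SE 0.136, adjusted p = 5.7e-06) but under 2-fold with the offset (0.88) and without whole-culture dox replicate 1 (0.96). Proliferation markers fell in 5 of 5 over this interval under vehicle (median -2.33), and under dox 1 of 5 rose (median 0.37). Of 8 myotube markers 2 rose and 1 fell under vehicle (median 0.56), and 5 rose and none fell under dox (median 1.4). The part of these markers was not tested.

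Under dox over the same interval *Gdf11* rose (log2 fold change 1.22, SE 0.0909, adjusted p = 5.44e-08; 1.51 with the GC offset), where under vehicle it changed by -0.24 (adjusted p = 0.074). *Smad6* (-3.39, and -1.51 with the offset) and *Bmp4* (-2.12, and -1.66) fell under both settings. *Tgfb1* fell by 1.67 on the log2 scale without the offset, against -0.77 with it. *Smad7* changed sign, from -1.17 (adjusted p = 5.04e-06) to 0.27 (adjusted p = 0.0947). Under vehicle its estimate changed sign as well, from -0.60 (adjusted p = 0.00122) to 0.41 (adjusted p = 0.0179), under 2-fold both ways. The fractions of the same time, whose top decile of genes by GC content lay at -0.02 to 0.84 relative to the median decile, had *Smad6* at 8.63 to 22.2 CPM, *Bmp4* at 28.9 to 64.7 CPM and *Tgfb1* at 34.2 to 142 CPM. In whole cultures of 120 h the same genes were at 0.565 to 2.16, 5.95 to 9.81 and 24.4 to 37.9 CPM, below every fraction library except that of *Tgfb1* in the library labelled vehicle replicate 2 of the myotube fraction. Whole cultures and fractions stand in separate deposited tables, so preparation and table cannot be told apart, here or in the transcript shares below.

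The split of counts among transcripts moved in those whole cultures too. *Bmp4*-202 held 72.7% of *Bmp4* counts there under vehicle (range 66.1 to 81.0%) and 60.2% under dox (37.3 to 76.1%), against 36.3% at 48 h under vehicle and 21.7% and 21.5% in the myotube and myoblast fractions under vehicle. *Tgfb1*-202 held 19.2% under vehicle and 29.3% under dox in whole cultures at 120 h, and at most 1.7% in any library of the other groups. *Gdf11*, *Tgfb3* and *Fst* each have 1 transcript in the annotation.

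Other genes of the pathway were counted in 10 lists by role, 93 genes in all, of which 59 to 68 were tested in a comparison. With dox, 29 of 62 were called in C2C12 iCdh23 (5 up and 24 down, 46.8%, against 30% of all tested genes) and 14 of 63 in C2C12 iMcam (22.2%, against 16.8%). All 6 TGF-beta response genes fell with dox at 48 h in C2C12 iMyoD1 (median log2 fold change -1.70, all tested genes 0.01, of which 14.4% were called) and in C2C12 iCdh23 (-2.78), and 5 of 6 fell in C2C12 iMcam (-2.45). Marker lists moved in the same comparisons. Proliferation markers fell in 5 of 5 in each (medians -1.78, -5.29 and -3.02), myotube markers in 7, 8 and 8 of 8 (-1.26, -6.39 and -2.69), and fibroblast markers in 1 of 4, 3 of 3 and 2 of 4 tested. Of the osteoblast markers 1 of 2 fell at 48 h in C2C12 iMyoD1, 2 of 3 in C2C12 iCdh23, where 1 rose, and 1 of 2 in C2C12 iMcam, with *Dmp1*, a bone matrix protein gene, at -2.19, -8.27 and -4.56. Adipocyte markers fell in 2 of 2 in C2C12 iCdh23 and in 0 of 2 in the other lines. Their part in the change of the response genes was not tested. At 48 h in C2C12 iMyoD1 those that fell included *Ccn2*, a matrix-associated growth factor (-1.94, SE 0.0921), and *Ltbp2*, a latent TGF-beta binding protein (-1.72, SE 0.0865). At 24 h 0 of 4 tested were called (all tested genes 13.1%), and at 0 h 0 of 6 (4.27%). In whole cultures at 120 h 3 of 6 fell (all tested genes 16.1%), among them *Tgfbi* (-2.76, SE 0.701). In those cultures 2 of 8 myotube markers fell (median -0.52), 1 of 5 proliferation markers rose (median 0.69), and of 4 tested fibroblast markers 1 rose and 1 fell. Of the osteoblast and adipocyte markers 1 of 3 and 1 of 2 fell, and the part of these markers was not tested. In the myoblast fraction 3 of 6 fell (median -1.22, all tested genes 3.03%), where 2 of 4 tested fibroblast markers and 1 of 2 osteoblast markers (*Dmp1*, -1.59) fell too. The list shares *Pmepa1* and *Skil* with the Smad regulators and *Ltbp2* with the latency genes.

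**Figure D5:**
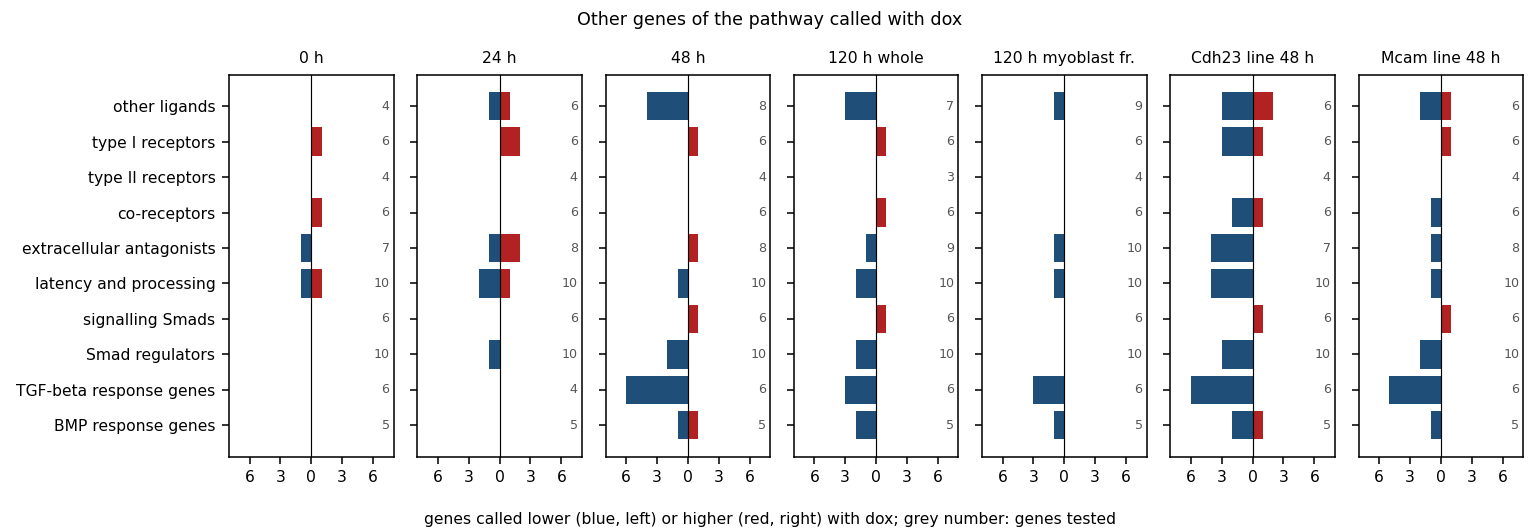
Bars count the genes of each role list called lower (blue, left) or higher (red, right) with dox in 7 comparisons, and the grey number is how many were tested. TGF-beta response genes reach 6 of 6 to the left at 48 h in C2C12 iMyoD1 and C2C12 iCdh23, and no type II receptor is called.

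BMP response genes were mixed. Of 5 tested, 1 rose and 1 fell with dox at 48 h (all tested genes 14.4%), 2 fell in whole cultures at 120 h (16.1%) and 1 in the myoblast fraction (3.03%). In C2C12 iCdh23 1 rose and 2 fell (30%), and in C2C12 iMcam 1 fell (16.8%). At 0 h (4.27%), 24 h (13.1%) and in the myotube fraction (0%) none was called with dox. *Id2*, an inhibitor of basic helix-loop-helix factors, fell with dox at 48 h (-2.95, SE 0.088), in whole cultures at 120 h (-2.22, SE 0.194), in the myoblast fraction (-1.58, SE 0.236), in C2C12 iCdh23 (-1.62, SE 0.242) and in C2C12 iMcam (-2.56, SE 0.339), while *Atoh8* rose at 48 h (1.18, SE 0.0851). *Id1* fell in whole cultures at 120 h (-1.16, SE 0.183) and in C2C12 iCdh23 (-1.77, SE 0.101), where *Bambi* rose (1.03, SE 0.269). Over time under vehicle 5 of 5 fell from 0 to 24 h (all tested genes 26.1%), 4 rose and none fell from 24 to 48 h (30.4%), and 5 fell from 48 to 120 h (29.8%). Under dox 4 fell in the first interval (16.8%), 4 rose and 1 fell in the next (28.8%), and 5 fell in the last (36.4%). Proliferation markers fell in 5 of 5 from 0 to 24 h under vehicle (median -1.67) and dox (-1.53), and from 48 to 120 h in 5 of 5 under vehicle and 0 of 5 under dox. From 24 to 48 h 1 rose under vehicle and 3 fell under dox. Myotube markers rose in 8 of 8 under both, and fibroblast markers in 4 of 4 under vehicle and 3 of 4 under dox. From 0 to 24 h 5 of 5 tested myotube markers rose under vehicle and 3 of 6 under dox. From 48 to 120 h 2 of 8 rose and 1 fell under vehicle, and 5 of 8 rose under dox. The part of these markers was not tested. *Id3* had the largest change from 0 to 24 h (-5.32, SE 0.107). These list counts carry no GC offset.

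Of 6 tested type I receptors, at most 2 were called with dox in a C2C12 iMyoD1 comparison (all tested genes 0% to 16.1%), 1 in C2C12 iMcam (16.8%) and 4 in C2C12 iCdh23 (1 up and 3 down, against 30% of all tested genes). *Acvr1b*, which serves activin, rose at 24 h (1.02, SE 0.0693), in C2C12 iCdh23 (1.62, SE 0.122) and in C2C12 iMcam (1.44, SE 0.0979). *Acvrl1* rose in C2C12 iMyoD1 at 0 h (1.49, SE 0.371), 24 h (1.01, SE 0.385, adjusted p = 0.0377), 48 h (1.61, SE 0.41) and in whole cultures at 120 h (1.69, SE 0.441). It fell in C2C12 iCdh23 (-1.30, SE 0.259), as did *Acvr1* (-1.10, SE 0.099). No type II receptor was called in any dox comparison. The co-receptor *Hfe2*, known as hemojuvelin, fell in C2C12 iCdh23 (-5.59, SE 0.411) and C2C12 iMcam (-2.05, SE 0.442) and rose in C2C12 iMyoD1 at 0 h (3.34, SE 0.611) and in whole cultures at 120 h (1.13, SE 0.0888).

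*Gdf15*, a stress-induced ligand, fell with dox at 24 h (-1.14), 48 h (-2.26), in whole cultures at 120 h (-7.36, SE 0.599), in the myoblast fraction (-3.12) and in both other lines. *Bmp7* rose in C2C12 iCdh23 (5.25, SE 0.526) and C2C12 iMcam (3.70, SE 0.594). *Grem1*, a secreted BMP antagonist, fell at 0 h (-1.60, SE 0.0669), 24 h (-2.89, SE 0.0686), in the myoblast fraction (-1.48), in C2C12 iCdh23 (-3.51) and in C2C12 iMcam (-1.53). In C2C12 iCdh23 4 of 7 tested extracellular antagonists fell (all tested genes 30%), with *Dcn*, the matrix proteoglycan decorin, at -4.47 (SE 0.289). Among latency and processing genes *Thbs1*, whose product activates latent TGF-beta, fell at 0 h (-1.37), 24 h (-1.67), in C2C12 iCdh23 (-3.75) and in C2C12 iMcam (-1.64). *Smad9*, a BMP signal carrier, was the only signalling Smad called with dox, rising at 48 h (1.64, SE 0.236), in whole cultures at 120 h (1.14), in C2C12 iCdh23 (1.23) and in C2C12 iMcam (1.05).

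The genes whose profile over the 16 group means was most like that of each member were found among 12085 genes by Pearson's r of log2(CPM + 1). For *Fst* they were *Ip6k3* (r = 0.981) and *Ncam1* (0.974). For *Tgfb2* they were the basement membrane genes *Col4a1* (0.976) and *Lamb1* (0.976), and for *Tgfb3* the collagen gene *Col1a1* (0.965) and *Acta2* (0.964). *Gdf11* was most like *Adi1* (0.948) and *Ralgps1* (0.941), *Smad7* like *Col1a2* (0.939) and *Dusp4* (0.915), and *Smad6* like *Prrx2* (0.989) and *Gnai2* (0.972). *Bmp4* paired with *Cdhr1* (0.942) and *Cxcl1* (0.941), *Tgfb1* with *Ddr1* (0.914) and *Anapc5* (0.911), and *Inhba* with *Pcdh19* (0.904) and *Camk1d* (0.878). Within the set *Tgfb2* and *Tgfb3* were the pair with the highest r, 0.94. With Spearman's rho 1 of the 2 nearest genes stayed for *Gdf11*, *Fst* and *Smad7*, and neither for the other 6. The 16 means share lines, times and libraries, so these are descriptions.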

How the data were processed

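Polyadenylated RNA of C2C12 iMyoD1, iCdh23 and iMcam cultures was sequenced by the authors with a NEBNext Ultra II library kit. The authors deposited 3 tables of estimated counts per transcript, made with salmon within nf-core/rnaseq on the mm10 build according to the labels. All 47 columns matched a labelled library.

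Estimated counts were added up per gene and rounded; 98.72% of 109617 transcripts were found in the GENCODE M21 annotation. Groups followed the labels. For each comparison, genes passing filterByExpr were scaled with TMM factors and tested with the quasi-likelihood test of edgeR 4.0.16 (R 4.3.3) and Benjamini-Hochberg adjustment over all genes tested. A call needed an adjusted p under 0.05 and a change over 2-fold; for a difference between dox effects only the adjusted p was used. The standard error is the log2 fold change divided by the square root of the F statistic. The code was tested on simulated data. Replicates are labelled as biological, with no statement of separate thawing or derivation, so p-values measure the spread between these cultures. CPM intervals for low counts cover counting error only.

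Alternatives were DESeq2 1.42.0, RLE normalization, total counts alone, no filter on low counts, all groups in 1 fit, a replicate block and leaving out each library. All groups in 1 fit means every group of the deposited tables that a comparison draws on, and not the groups of other tables. The GC offset, which takes out each library's lowess trend of log2 CPM on GC content, and the removal of both myotube-fraction libraries numbered 2 were chosen after seeing the data. Same-numbered libraries deviated together in C2C12 iMcam (correlations 0.362, 0.227 and 0.419) and between the fractions under vehicle (0.413, 0.117 and 0.189), and were taken as paired there only, where 3 pairs each passed 0.1. The main tests left this pairing out, also in C2C12 iMcam. It enters only as the replicate block, which changed no member's call in C2C12 iMcam. Genes named beyond the 10 are at most the 3 with the largest change among those called in a list and comparison, and the 2 most like each member with a mean of at least 1 CPM in some group, among genes of at least 5 CPM. The members, pathway lists and marker lists were chosen with earlier results of these data known. Values of 1 gene of the pathway lists are not reported here.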

Additional observations from a re-analysis of the deposited data

Results flagged for a closer look

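Several dox effects differed between times or lines by the test of the difference itself (edgeR, adjusted p under 0.05 over all genes), and they are given as differences of log2 fold changes. Between 24 h and 0 h in C2C12 iMyoD1 the difference was 0.91 for *Tgfb1*, 0.32 for *Tgfb3* and 0.41 for *Gdf11*, and it was -0.73 for *Inhba* and -0.97 for *Smad7*. Between C2C12 iCdh23 and C2C12 iMyoD1 at 48 h it was 0.81 for *Tgfb1* and 0.73 for *Gdf11*. In the same comparison it was -4.95 for *Fst*, -2.93 for *Bmp4*, -2.02 for *Tgfb2*, -1.85 for *Tgfb3*, -1.34 for *Smad7* and -0.54 for *Smad6*. Between C2C12 iMcam and C2C12 iMyoD1 it was -0.98 for *Bmp4*. The comparisons of lines use the same C2C12 iMyoD1 libraries of 48 h. The other lines stand in another deposited table, so line and table cannot be told apart. With all groups in 1 fit the differences between C2C12 iCdh23 and C2C12 iMyoD1 no longer passed for *Tgfb1* (adjusted p = 0.196), *Gdf11* (0.356) and *Smad6* (0.366). That of *Smad6* also missed with total counts alone (0.0861) and without C2C12 iMyoD1 vehicle replicate 3 (0.0525) or dox replicate 2 (0.0505). For *Smad6* neither line had a change over 2-fold of its own (-0.24 and 0.31).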

How the results depend on the processing

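Of 180 estimates for the 9 tested genes, the direction and the side of the threshold were both unchanged in 179 with RLE normalization, 176 with DESeq2, 177 without the filter on low counts, 175 with all groups in 1 fit, 161 with total counts alone, 165 with the GC offset and 177 with the replicate block, and in 1205 of 1269 estimates made without 1 library. With the GC offset *Smad7* from 48 to 120 h under dox turned to 0.27, and the number of genes called there went from 6 to 3. With the replicate block 1 gene, *Fst*, was called between fractions under vehicle, and it changed no other call. DESeq2 called 1 there, *Gdf11*. With total counts alone 1 gene was called with dox at 48 h and 3 in C2C12 iMcam. With all groups in 1 fit none (0) was called in the myoblast fraction, 5 for the difference between C2C12 iCdh23 and C2C12 iMyoD1, and 0 for that between C2C12 iMcam and C2C12 iMyoD1, where DESeq2 gave 3, no filter 3 and the GC offset 2. Without 1 library, the calls ranged from 0 to 1 with dox at 0 h, from 0 to 1 in the myoblast fraction, from 2 to 4 in whole cultures at 120 h, from 3 to 6 in C2C12 iMcam and from 0 to 5 for C2C12 iMcam against C2C12 iMyoD1. In the myoblast fraction the same-numbered libraries also deviated together (0.431 and 0.3), but 2 pairs were too few to take them as paired; with the block the adjusted p there was 0.0042 for *Tgfb3*, 0.00683 for *Fst*, 0.0164 for *Bmp4* and 0.0199 for *Smad7*, each under 2-fold. Other estimates that changed sign were called under neither setting. With the GC offset these were *Smad7* from 48 to 120 h under vehicle (0.41), *Tgfb1* in C2C12 iCdh23 (-0.026), *Smad6* in the myoblast fraction (-0.063) and *Smad6* at 24 h against 0 h (-0.0034). With total counts alone they were *Tgfb3* at 24 h (0.24), *Tgfb1* at 0 h (0.0017), *Smad6* in C2C12 iCdh23 (0.090) and C2C12 iMcam (0.19), *Bmp4* at 24 h against 0 h (0.016), *Gdf11* in C2C12 iMcam against C2C12 iMyoD1 (0.027), and between fractions under dox *Tgfb2* (-0.095) and *Smad7* (-0.069). *Tgfb3* between fractions under vehicle came to 0.0025 with DESeq2 and with RLE. With the block *Tgfb1* between fractions under dox came to -0.073 and the dox effect on *Fst* between fractions to 0.094. Without both myotube-fraction libraries numbered 2, the dox effect in the myotube fraction turned to -0.22 for *Tgfb2* and -0.043 for *Inhba*. Between fractions under vehicle *Tgfb1* turned to 0.15, *Tgfb3* to 0.20 and *Smad7* to 0.060, and under dox *Tgfb2* to -0.12, *Gdf11* to 0.054, *Smad6* to 0.23 and *Smad7* to -0.045. The difference of dox effects between fractions turned to -0.078 for *Tgfb2*, -0.0015 for *Tgfb3* and -0.10 for *Smad7*. Without 1 library 22 estimates changed sign, each uncalled. With dox they ranged from -0.046 to 0.018 for *Tgfb3* at 24 h, from -0.016 to 0.35 for *Tgfb1* in C2C12 iCdh23 and from -0.095 to 0.073 for *Smad6* in C2C12 iMcam. In the myoblast fraction *Tgfb1* ranged from -0.13 to 0.29 and *Smad6* from -0.11 to 0.13. In the myotube fraction *Tgfb2* ranged from -0.073 to 0.24, *Tgfb3* from -0.44 to 0.068, *Inhba* from -0.36 to 0.56, *Smad6* from -0.013 to 0.65 and *Smad7* from -0.57 to 0.21. From 48 to 120 h under vehicle *Tgfb3* ranged from -0.051 to 0.18. Between fractions under vehicle *Tgfb1* ranged from -0.38 to 0.15, *Tgfb3* from -0.24 to 0.20, *Inhba* from -0.30 to 0.48 and *Smad7* from -0.76 to 0.060. Under dox *Tgfb1* ranged from -0.076 to 0.60, *Tgfb2* from -0.12 to 0.25, *Gdf11* from -0.68 to 0.054, *Smad6* from -0.37 to 0.23 and *Smad7* from -0.16 to 0.45. The difference of dox effects between fractions ranged from -0.74 to 0.39 for *Fst* and from -0.047 to 0.60 for *Smad6*. Unless a value above shows it, the cause was not tested. Depth limits *Mstn*, with at most 13 counts in a library, and *Fst* in dox-treated C2C12 iCdh23, with 5 to 26 counts.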
